A study of Mus musculus with 94 samples.

Results

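The elements described here are the L1 copies of the subfamilies L1M1 to L1M8, the members of the mammalian-wide L1M group whose names carry a number after the letter M. They were chosen by name: each copy in the table of L1 counts whose subfamily name begins with L1M followed by a digit was kept, apart from 2 copies that the rule names and leaves out, L1M2_dup16808 and L1M4_dup8058. This gave 30222 of the 430083 L1 copies in the table (7.03%), in 24 of its 133 subfamilies. The table gives neither the age nor the sequence of a copy.

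LINE-1 (L1) elements are retrotransposons that copy themselves through an RNA intermediate and a reverse transcriptase. The L1M subfamilies are old: their copies were inserted before the rodent lineage arose, and most are short, mutated fragments that no longer move. RNA that is read from such fragments often belongs to a longer transcript in which the fragment lies, such as an intron of a pre-mRNA, whereas young mouse L1Md copies can be transcribed from their own promoter. A count on an L1M copy is therefore RNA that overlaps the copy, and it does not tell which promoter made it.

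RNA was sequenced from the cortex and hippocampus of male mice aged 3 to 4 months. Ts65Dn mice (TS), which carry a segmental trisomy of genes orthologous to human chromosome 21, came from B6EiC4Sn.BLiA-Ts(1716)65Dn/DnJ females crossed with B6C3F1/OlaHsd hybrid males, and the euploid littermates of the same cross served as wild type (WT). Mice of both genotypes either received lamivudine, a nucleoside inhibitor of reverse transcriptase, at 3 mg/kg in the drinking water (TS-t, WT-t) or did not (TS-nt, WT-nt). The treatment lasted 4 months, and the tissue was taken after the behavioral tests. Whether the stated age is that at the start of treatment or at sampling is not given. Cortex was represented by 9 WT-nt and 17 WT-t libraries and by 9 TS-nt and 13 TS-t libraries, and hippocampus by 8, 17, 8 and 13 in that order, with 46 mice measured in both tissues. The labels give 1 mouse to each library, whereas the study's methods describe pools of 3 samples of a condition that were made before RNA quality was measured. Whether a library holds the RNA of 1 mouse is thus not settled, and the p-values measure the spread between libraries. The labels of all untreated mice begin with 20, whereas those of most WT-t and some TS-t mice begin with other numbers. Treatment and the start of the label therefore overlap in part, and what that start stands for is not given. Only males were studied, and the table of L1 counts holds no genes, so the tissue labels were not checked against marker genes here.

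Total L1 counts ranged from 186545 to 1165192 per cortex library (median 323416) and from 178454 to 403378 per hippocampus library (median 259745). Of these, 10222 to 58381 counts fell on L1M1 to L1M8 copies in cortex and 13006 to 27945 in hippocampus. On the first principal component of the L1 counts, 8 cortex libraries were over 3 median absolute deviations away from their tissue's median (4 WT-t, 2 TS-t, 1 TS-nt and 1 WT-nt), while no hippocampus library did. The most distant in content was the cortex of WT-t mouse 1, in which 181 copies held a count, against a median of 3597.5 copies over the 48 cortex libraries. The cortex of TS-nt mouse 27 did not pass that limit but held counts on 12059 copies. Values without these libraries are given beside the results that they moved most.

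Nearly every L1M1 to L1M8 copy received at least 1 count somewhere. There were 504 copies with no count in any library (1.67%), against 9.61% of all L1 copies in the table. The shares without a count were 1.10% for L1MA and L1MB copies, 1.77% for L1ME copies and 23.8% for L1Md copies. Most copies were counted rarely: 35 copies held a count in all 48 cortex libraries and 121 in all 46 hippocampus libraries. After the filter on low counts, 322 copies were tested in cortex and 275 in hippocampus, and these carried 41.8% and 50.3% of the counts on all L1M1 to L1M8 copies. The tests of single copies therefore describe the most abundant copies, and the sums per subfamily describe all of them.

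The 24 subfamilies together made up 6.30% ± 0.731 of L1 counts in cortex (SD, n = 48) and 6.71% ± 0.275 in hippocampus (SD, n = 46). In cortex, the share in WT-nt ranged from 4.00% to 6.73% with a median of 6.41%. The share in WT-t cortex ranged from 3.68% to 6.82% with a median of 6.48%. In TS-nt cortex it ran from 6.31% to 7.65% (median 6.56%), and in TS-t cortex from 4.46% to 7.12% (median 6.42%). The 4 groups overlapped, and their medians lay within a narrow band. In hippocampus the lowest, median and highest shares were 6.28%, 6.59% and 7.08% in WT-nt and 6.31%, 6.77% and 7.29% in WT-t. They were 6.57%, 6.66% and 7.18% in TS-nt and 6.08%, 6.49% and 7.12% in TS-t, so that the groups overlapped there too. The low cortex values came mainly from the libraries that stood apart: the 8 distant libraries had a median share of 5.20% (3.68% to 6.80%) against 6.52% (5.23% to 7.65%) in the other 40. Without these 8 and mouse 27, the cortex share was 6.50% ± 0.269 (SD, n = 39), with a spread close to that of hippocampus.

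**Figure D1:**
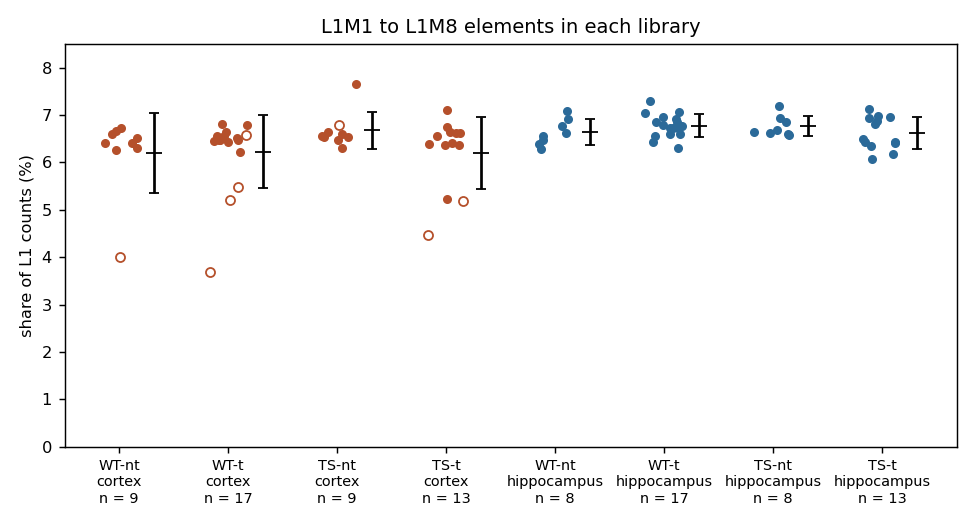
Share of all L1 counts (percent) that fell on L1M1 to L1M8 copies in each library, by tissue and group, with the mean and SD of each group. Hippocampus libraries lie between 6.08% and 7.29%, whereas cortex libraries reach down to 3.68% and up to 7.65%.

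The subfamilies differed widely in how many copies they hold and in how their counts were spread over those copies. L1M5 (8315 copies), L1M2 (7323 copies), L1M4 (7151 copies) and L1M3 (3155 copies) are the largest, and L1M2a1 (5 copies), L1M2b (8 copies) and L1M6B (26 copies) are the smallest. L1M5 carried 30.3% of the counts on L1M1 to L1M8 copies in cortex and 30.9% in hippocampus. L1M4 carried 21.4% and 20.2%, L1M2 20.5% and 19.5%, and L1M3 8.94% and 8.75%. Shares of counts grow with the number and length of the copies, and lengths were not used here, so that these shares do not rank expression per base. L1M6B took 2.16% of the counts in cortex and 3.03% in hippocampus from its 26 copies, and L1M2b took 1.17% and 1.90% from its 8 copies.

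In the largest subfamilies no single copy dominated, although a small part of the copies held 50% of the counts. It took the 345 most counted copies to reach 50% of the L1M4 counts in cortex and 204 in hippocampus. The corresponding numbers were 289 and 129 for L1M2 and 81 and 28 for L1M5. In L1M4b, with 1010 copies, 7 copies were enough in cortex and 4 in hippocampus. In some small subfamilies a single copy held nearly everything. L1M2b_dup14 held 98.7% of L1M2b counts in cortex and 99.3% in hippocampus, and L1M2a1_dup7 held 98.8% and 99.2% of L1M2a1 counts. L1M6B_dup12 held 46.9% and 44.7% of L1M6B counts, L1M6_dup201 held 34.5% and 28.05% of L1M6 counts, and L1M3f_dup93 held 26.3% and 39.8% of L1M3f counts. A change of L1M2b or L1M2a1 is thus a change of 1 copy, whereas a change of L1M4 or L1M2 is an average over many.

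**Figure D2:**
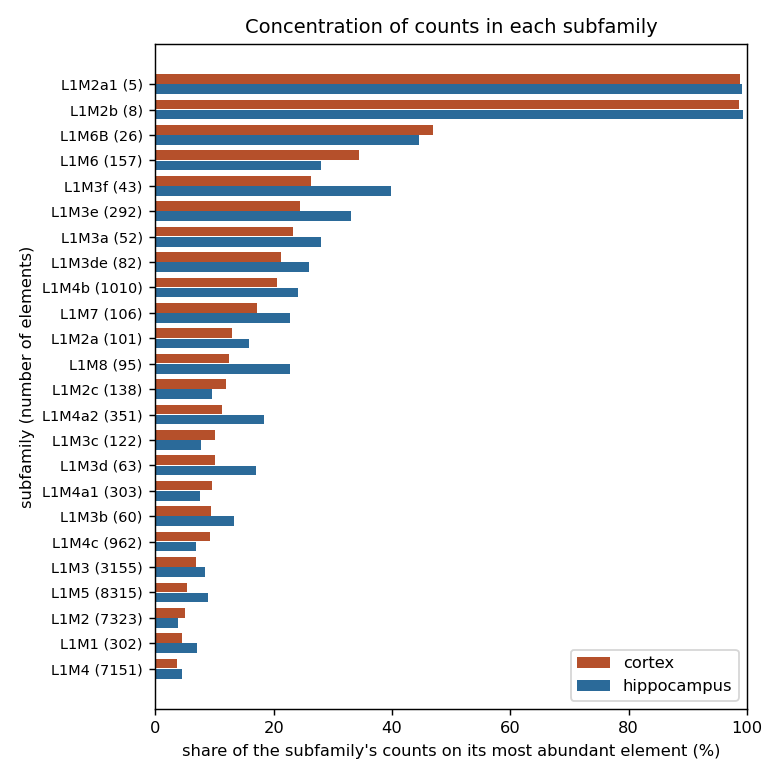
Percent of each subfamily's counts that fell on its most counted copy, in cortex and in hippocampus, with the number of copies after each name. L1M2b and L1M2a1 stand above 98%, while in L1M4 the most counted copy holds 3.59% in cortex and 4.45% in hippocampus.

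The spread between libraries of one group was small in the largest subfamilies. The coefficient of variation of the share of L1 counts ranged over the 8 groups from 4.59% to 13.99% for L1M2, from 3.56% to 12.9% for L1M3, from 4.06% to 14.8% for L1M4 and from 5.13% to 18.6% for L1M5. It ranged from 49.3% to 107% for L1M3b and from 53.9% to 77.1% for L1M3a, which held 456 and 503 counts in all cortex libraries together. The order did not follow the number of counts throughout. The range was 18.9% to 47.3% for L1M6B, with 22400 counts in cortex, and 15.4% to 31.4% for L1M1, with 4602 counts. The highest values of L1M2b and L1M2a1 were 44.2% and 57.8%.

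The copies with the highest mean levels were the same 5 in both tissues. Levels of single copies are given as CPM relative to a library's counts on the copies tested, after TMM scaling. L1M5_dup9524 had a lowest, median and highest level of 0, 2354 and 3724 CPM in cortex and of 0, 3383 and 4916 CPM in hippocampus. Its levels fell into separate ranges: it was at or near 0 in some libraries of both tissues and far above 0 in the rest. L1M5_dup1851 stood at 545, 1703 and 2816 CPM in cortex and at 1048, 1565 and 2290 CPM in hippocampus. L1M4b_dup592 stood at 65.9, 1498 and 2406 CPM in cortex and at 797, 1548 and 3573 CPM in hippocampus. In both copies the ranges of the tissues overlapped. L1M2b_dup14 had 191, 1486 and 2277 CPM in cortex and 1342, 2033 and 3099 CPM in hippocampus, and L1M6B_dup12 had 179.8, 1242 and 1926 CPM against 697, 1477 and 2684 CPM.

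The comparison of the tissues asked which of these old copies and subfamilies were transcribed at different levels in cortex and hippocampus, over all groups. Of the 463 copies tested in both tissues together, 101 differed (adjusted p below 0.1, edgeR quasi-likelihood test), which is 21.8%, against 22.7% of all 7551 L1 copies tested. Of these, 31 copies were higher in cortex (6.70%, against 12.2% of all copies tested) and 70 were higher in hippocampus (15.1%, against 10.4%). The median log2 difference was -0.04 over the L1M1 to L1M8 copies and 0.09 over all copies, where a positive value is higher in cortex. The balance of directions depended on the scaling, for these copies and for all copies. The DESeq2 size factors in place of TMM moved the median of all copies by 0.14 on the log2 scale toward cortex. With them, 59 of the 463 copies were higher in cortex and 60 in hippocampus, against 18.9% and 8.04% of all copies. DESeq2 itself gave 81 and 70 of 463, against 22.8% and 9.73% of all copies. Of the called L1M1 to L1M8 copies 30.7% were higher in cortex by TMM, against 54.0% of all called copies. These shares were 49.6% and 70.2% with the DESeq2 size factors, and 53.6% and 70.1% by DESeq2. In each of these settings the L1M1 to L1M8 share was the lower one, whereas the shares were nearly equal with the weaker filters described below. Without the 8 distant cortex libraries the counts were 58 and 71 of 443 copies tested, against 17.7% and 11.7% of all copies, and without mouse 27 as well they were 49 and 69 of 478, against 14.9% and 10.3%. With the mouse as a block, over the 46 mice with both tissues, 40 copies were higher in cortex and 82 in hippocampus of 455 tested, against 13.3% and 12.7% of all copies.

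The filter on low counts bears on these numbers, since a copy could enter the comparison through the tissue in which it was high. Of the 463 copies, 245 also passed the filter within each tissue, and 16 of them were called higher in cortex and 45 in hippocampus. Another 73 passed it within cortex only, of which 14 were called higher in cortex and 0 in hippocampus, and 30 passed it within hippocampus only, of which 0 and 17 were called. The other 115 passed it in neither tissue alone, with 1 and 8 called. For copies that passed within 1 tissue only, the filter itself favoured a difference in that direction, and their counts are a description. The same split was not made over all L1 copies. Whether the 16 and 45 among copies that passed in each tissue differ from all L1 copies is thus not known here.

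Within single groups fewer copies passed the test. There were 8 in WT-nt (background 2.6% of all copies), 40 in WT-t (background 8.86%), 11 in TS-nt (background 2.97%) and 17 in TS-t (background 4.11%) of the same 463. These are 1.73%, 8.64%, 2.38% and 3.67%, so that in each group the share was at or below that of all L1 copies. The WT-t and TS-t groups are also the largest. Differences between the groups in the number of copies that passed were not tested.

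The called copies were spread over most subfamilies. In L1M2, 8 copies were higher in cortex and 20 in hippocampus of 110 tested, and in L1M5 the counts were 10 and 17 of 117. L1M4 had 6 and 7 of 100, L1M3 had 1 and 8 of 46, and L1M4b had 2 and 3 of 29. The log2 differences of the 31 copies higher in cortex had a median of 0.98 and ran from 0.41 to 3.32, and 12 of them were at least 2-fold. Those of the 70 copies higher in hippocampus had a median of -0.77 and ran from -5.76 to -0.31, with 27 at least 2-fold and 5 at least 8-fold. In 11 cases a pair of called copies of one subfamily carried copy numbers that lay within 2 of each other and moved in the same direction, such as L1M3_dup6441 and L1M3_dup6443. Positions in the genome were not used for these pairs, so whether they lie in 1 transcript is not known here.

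The smallest p-value between the tissues was that of L1M4_dup5561, a copy that passed the filter within hippocampus only, so that its p-value is a description. In cortex it held 13 counts in all, in 5 of 48 libraries, with at most 4 in any library. In hippocampus it held 2 to 47 counts (median 16) in each of the 46 libraries, or 11.7 to 286 CPM with a median of 103 CPM. It was higher in hippocampus in 46 of 46 mice (log2 difference -5.76, SE 0.37, adjusted p = 2.79e-38, edgeR). L1M5_dup4570 had a lowest, median and highest level of 0, 26.9 and 173 CPM in cortex and of 47.8, 158 and 365 CPM in hippocampus, and was higher in hippocampus in 45 of 46 mice (log2 difference -2.28, adjusted p = 4.16e-18, edgeR). The ranges of the tissues overlapped, but the medians were far apart.

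L1M3_dup6443, L1M3_dup6441 and L1M4b_dup1635 also passed the filter within hippocampus only, with the same limit, and each had a cortex median of 0 CPM. L1M3_dup6443 reached at most 25.1 CPM in cortex against a hippocampus median of 44.3 and highest value of 170 CPM (log2 difference -3.99, adjusted p = 6.41e-14, edgeR, higher in hippocampus in 40 of 46 mice). L1M3_dup6441 reached at most 35.1 CPM in cortex against a hippocampus median of 31.1 and highest value of 123 CPM (log2 difference -4.34, adjusted p = 1.15e-13, edgeR, 41 of 46 mice). They held a count in 11 and 7 of 48 cortex libraries, and in 40 and 41 of 46 hippocampus libraries. The median of L1M4b_dup1635 in hippocampus was 35.7 CPM (log2 difference -3.73, adjusted p = 1.87e-11, edgeR, 40 of 46 mice).

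Among the copies higher in cortex, L1M2_dup5523 and L1M2_dup762 passed the filter within cortex only, and the same limit holds for them. L1M2_dup5523 had 0, 83.0 and 248 CPM (lowest, median, highest) in cortex and 0, 0 and 79.3 CPM in hippocampus. It held a count in 44 of 48 cortex and 20 of 46 hippocampus libraries, and it was higher in cortex in 42 of 46 mice (log2 difference 3.32, adjusted p = 3.84e-15, edgeR). L1M2_dup762 had a median of 60.8 CPM in cortex and 6.69 CPM in hippocampus (log2 difference 2.41, adjusted p = 9.27e-10, edgeR, 41 of 46 mice). L1M2_dup4843 was the most counted L1M2 copy in cortex and differed less: 540, 1194 and 1799 CPM in cortex against 456, 746 and 1722 CPM in hippocampus (log2 difference 0.63, adjusted p = 7.13e-07, edgeR, 39 of 46 mice). L1M5_dup2289 (medians 215 and 116 CPM, log2 difference 0.96, adjusted p = 2.48e-06, edgeR) and L1M5_dup1829 (medians 119 and 51.3 CPM, log2 difference 1.25, adjusted p = 3.11e-06, edgeR) were higher in cortex in 41 and 36 of 46 mice. These 10 copies were those with the smallest p-values in each direction, and all 10 kept their direction and their call under every alternative that was run. The alternatives used the same libraries on which the 10 were chosen. For the copies that passed the filter within 1 tissue only, the filter favoured this outcome too. That the calls were kept is therefore a description and gives no independent support.

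**Figure D3:**
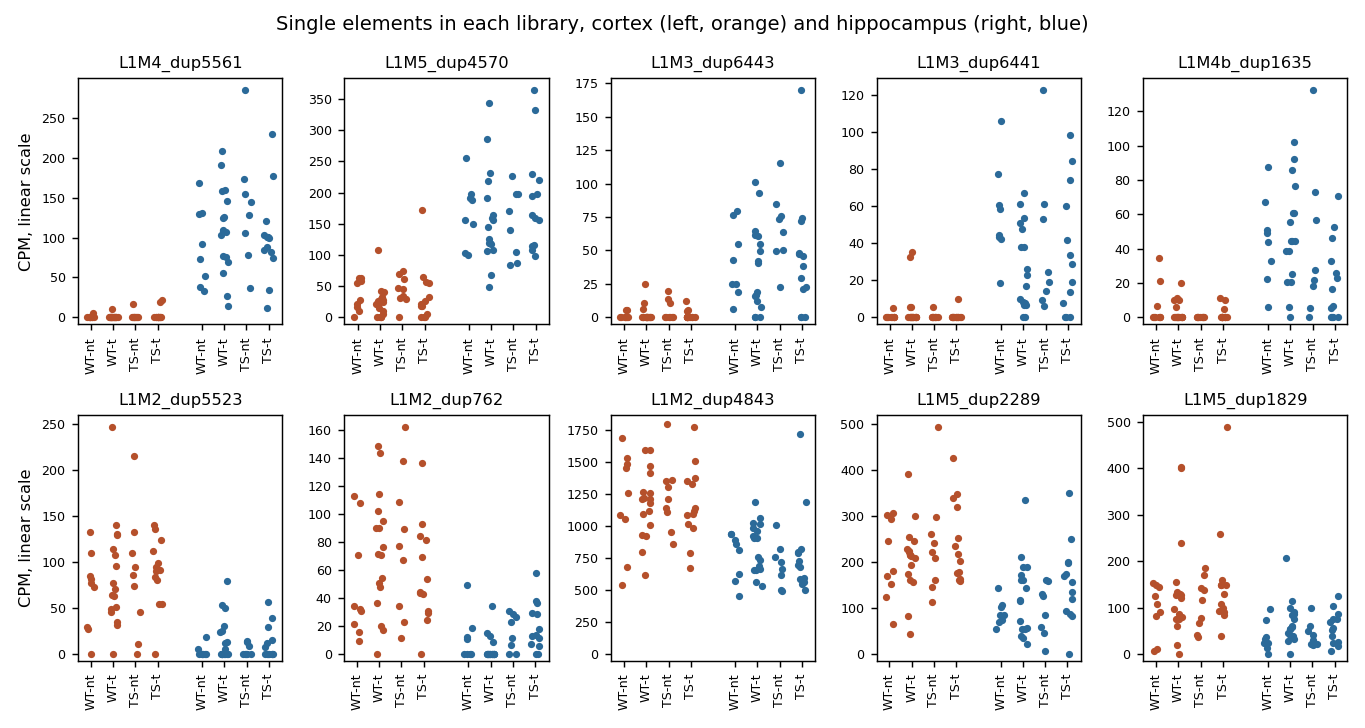
Levels of the 10 copies in each library by group (CPM on linear axes, each point 1 library), cortex at the left and hippocampus at the right of each panel. L1M4_dup5561 is at 0 CPM in most cortex libraries and above 0 in all 46 hippocampus libraries, while L1M2_dup5523 has a median of 83.0 CPM in cortex and 0 CPM in hippocampus.

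Of the 5 most abundant copies, L1M2b_dup14 was higher in hippocampus (log2 difference -0.60, adjusted p = 1.64e-06, edgeR), in 45 of 46 mice. L1M6B_dup12 was also called higher in hippocampus (-0.31, adjusted p = 0.0345, edgeR), but not with the DESeq2 size factors (adjusted p = 0.119). The other 3 were not called. L1M5_dup9524 gave -0.69 (adjusted p = 0.227, edgeR), L1M4b_dup592 gave -0.26 (adjusted p = 0.228, edgeR; 0.0621 with the mouse as a block) and L1M5_dup1851 gave 0.14 (adjusted p = 0.385, edgeR). L1M5_dup1851 did pass without the 8 distant libraries, at 0.25 higher in cortex (adjusted p = 0.00231, edgeR).

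Summed over all copies, 10 of the 24 subfamilies differed between the tissues (41.7%), whereas 70.7% of all 133 L1 subfamilies did. Levels of subfamilies are given as CPM of all L1 counts after TMM scaling. Higher in hippocampus were L1M2b, L1M6B, L1M7, L1M3e, L1M4b and L1M5 (25.0%, against 33.1% of all subfamilies). Higher in cortex were L1M6, L1M3de, L1M3d and L1M4a1 (16.7%, against 37.6%). The share was thus below that of all subfamilies in both directions. The mouse block gave 4 higher in cortex and 6 in hippocampus as well, against 33.8% and 33.1% of all subfamilies, but dropped L1M3de and added L1M2a1.

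L1M2b changed most. Its mean was 803 ± 285 CPM in cortex (SD, n = 48) and 1284 ± 277 CPM in hippocampus (SD, n = 46), and it was higher in hippocampus in 43 of 46 mice (log2 difference -0.69, SE 0.11, adjusted p = 1.64e-07, edgeR). Since L1M2b_dup14 held nearly all of its counts, this is the difference of that copy. L1M6B, in which L1M6B_dup12 was the most counted of 26 copies, rose from 1447 ± 539 CPM in cortex to 2076 ± 625 CPM in hippocampus (-0.50, adjusted p = 0.000231, edgeR, 40 of 46 mice). L1M3e was at 999 ± 135 CPM in cortex and 1173 ± 168 CPM in hippocampus (-0.23, adjusted p = 5.20e-06, edgeR, 38 of 46 mice). L1M4b was at 3669 ± 712 CPM in cortex and 4165 ± 666 CPM in hippocampus (-0.18, adjusted p = 0.00291, edgeR, 31 of 46 mice), and L1M4b_dup592 held 20.6% and 24.2% of its counts. L1M7 was at 191 ± 64.6 CPM in cortex and 249 ± 63.2 CPM in hippocampus (-0.34, adjusted p = 0.00598, edgeR). With the most counted copy of every L1 subfamily left out, L1M7 no longer passed (-0.16, adjusted p = 0.251, edgeR). The largest subfamily, L1M5, differed by the smallest amount among the 10 called: 19467 ± 1473 CPM in cortex against 20587 ± 1288 CPM in hippocampus (-0.08, SE 0.02, adjusted p = 0.00132, edgeR), with 31 of 46 mice higher in hippocampus. Its most counted copy, L1M5_dup9524, held 5.28% of the L1M5 counts in cortex and 8.95% in hippocampus. In 5 cortex libraries and no hippocampus library, this copy and L1M5_dup6859, a second L1M5 copy described below, were both at or near 0.

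L1M6 was the subfamily that stood most clearly higher in cortex, at 255 ± 72.1 CPM against 190 ± 58.0 CPM in hippocampus. It was higher in cortex in 40 of 46 mice (log2 difference 0.46, SE 0.10, adjusted p = 9.08e-05, edgeR). The difference was 0.22 (adjusted p = 0.0918, edgeR) without the most counted copy of every L1 subfamily, L1M6_dup201 among them. L1M3de was at 149 ± 55.6 CPM in cortex and 126 ± 43.8 CPM in hippocampus (0.31, adjusted p = 0.0472, edgeR; 0.171 with the mouse as a block). L1M3d (0.30, adjusted p = 0.0969, edgeR) and L1M4a1 (0.12, adjusted p = 0.0762, edgeR) were close to the threshold and lost their call without the TMM factor (adjusted p = 0.165 and 0.231). L1M4a1 also lost its call with the most counted copy of every L1 subfamily left out (adjusted p = 0.614, edgeR).

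The other 14 subfamilies did not pass. L1M2 differed by -0.02 (95% interval -0.06 to 0.02), L1M4 by 0.01 (-0.03 to 0.05), L1M3 by -0.04 (-0.09 to 0.0048) and L1M4c by 0.04 (-0.01 to 0.10). With the most counted copy of every L1 subfamily left out, all 4 were called higher in hippocampus: L1M2 at -0.10 (adjusted p = 1.27e-05, edgeR), L1M3 at -0.08 (adjusted p = 0.00646), L1M4 at -0.05 (adjusted p = 0.0350) and L1M4c at -0.06 (adjusted p = 0.0699), the last 2 with their direction turned. This setting also changed the library totals and the scaling. In L1M4 the copy left out held 3.59% of the counts in cortex and 4.45% in hippocampus. Whether the shifts came from the copies or from the totals was not tested. The remaining 10 subfamilies lay between -0.30 (L1M3a) and 0.19 (L1M2a1), with wide intervals for the sparse ones, such as -0.51 to 0.49 for L1M3b.

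**Figure D4:**
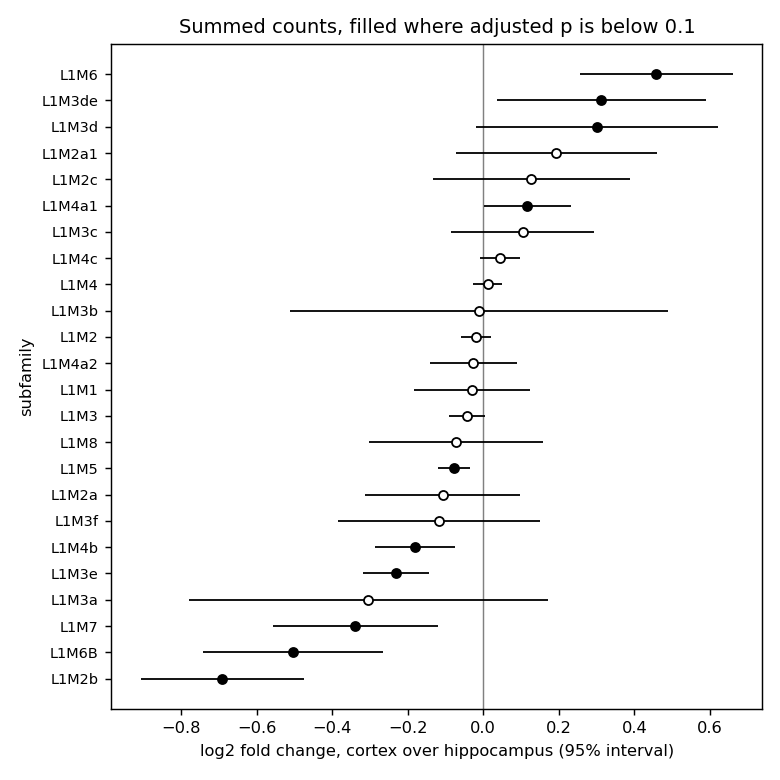
Log2 difference between cortex and hippocampus of each subfamily with its 95% interval (positive is higher in cortex, filled where adjusted p is below 0.1). L1M6 lies highest at 0.46 and L1M2b lowest at -0.69, and the intervals of L1M2 and L1M4 are narrow around 0.

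The comparisons within each tissue asked whether trisomy and lamivudine changed the transcription of these copies. No copy passed the test in any of the 6 contrasts of either tissue, by edgeR at adjusted p below 0.1. In cortex the background was 0% of the 5416 L1 copies tested in all 6 contrasts, and in hippocampus, of 4238 copies, it was 0.0708% for TS-nt vs WT-nt, 0.0472% for TS-t vs WT-nt and 0% for the other 4. At an unadjusted p below 0.05 there were 6 of 322 copies in cortex for TS-nt vs WT-nt (1.51% of all copies tested), 7 for TS-t vs WT-nt (1.75%), 2 for TS-t vs TS-nt (0.905%), 7 for WT-t vs WT-nt (1.59%), 6 for TS-t vs WT-t (1.96%) and 2 for the interaction of treatment and genotype (1.11%). In hippocampus, in the same order, there were 9, 15, 9, 7, 15 and 12 of 275 copies, where all copies tested gave 4.03%, 4.25%, 3.26%, 3.16%, 3.94% and 3.11%. Over all copies these shares were below what a limit of 0.05 passes when nothing differs, slightly in hippocampus and strongly in cortex. The tests of single copies were thus conservative, above all in cortex, and the lack of calls does not show that no copy changed. DESeq2 called 1 copy in hippocampus for TS-t vs WT-nt and 1 for TS-t vs WT-t, and none in the other 10.

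The median log2 change of the tested copies was small throughout. In cortex TS-nt vs WT-nt it was 0.18, where all L1 copies gave 0.07, and in hippocampus it was 0.02, where all copies gave -0.03. For TS-t vs TS-nt it was -0.09 in cortex and -0.0024 in hippocampus, and for WT-t vs WT-nt it was 0.05 and 0.04. The contrasts of one tissue share groups, so that these values are not independent of each other. The difference of the genotype effect between the tissues was called for no copy and no subfamily (background 0%; 11 of 463 copies and 0 of 24 subfamilies at an unadjusted p below 0.05, edgeR).

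For each contrast the copy with the smallest p-value is given here as a description. L1M4b_dup678 in hippocampus came closest to the threshold. Its lowest, median and highest levels in hippocampus were 377, 431 and 511 CPM in WT-nt, and 285, 474 and 689 CPM in WT-t. They were 334, 483 and 586 CPM in TS-nt and 146, 283 and 574 CPM in TS-t. The TS-t median lay below the lowest values of the other 3 groups, while its highest values reached into all of them. TS-t vs WT-t gave a log2 change of -0.58 (SE 0.16, adjusted p = 0.185, edgeR; adjusted p = 0.0707, DESeq2), and TS-t vs TS-nt gave -0.56 (SE 0.18). In cortex the medians of L1M4b_dup678 were 323, 356, 405 and 348 CPM in WT-nt, WT-t, then TS-nt and TS-t, with strongly overlapping ranges.

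L1M4b_dup171, a more abundant copy of the same subfamily, gave the smallest p-value for TS-t vs WT-nt in hippocampus. It stood at 1163, 1333 and 1489 CPM in WT-nt and at 703, 987 and 1244 CPM in TS-t (log2 change -0.43, SE 0.14, adjusted p = 0.567, edgeR), so that the groups overlapped only at their edges. In hippocampus of TS-nt it had a median of 1003 CPM and in WT-t of 1253 CPM. L1M4b_dup1578 had a median of 111 CPM in WT-nt and 68.0 CPM in TS-nt hippocampus (-1.13, SE 0.40, adjusted p = 0.904, edgeR). L1M5_dup2360 had a median of 18.5 CPM in WT-nt and 58.8 CPM in WT-t hippocampus (1.67, SE 0.51, not called).

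In cortex the smallest p-values belonged mostly to sparse copies. L1M2_dup5233 had a median of 41.1 CPM in WT-nt and 53.9 CPM in TS-nt (log2 change 1.46, SE 0.62, adjusted p = 0.999, edgeR), and its highest TS-nt library reached 272 CPM. Without the 8 distant libraries its change was 0.79. L1M4_dup390, the most counted L1M4 copy, had lowest, median and highest levels of 287, 483 and 995 CPM in WT-nt cortex and of 301, 907 and 3072 CPM in TS-t cortex (TS-t vs WT-nt, 0.71, SE 0.31, not called). Its medians in WT-t and TS-nt cortex were 916 and 893 CPM. In hippocampus its median was 386 CPM in WT-nt, against 1187, 899 and 939 CPM in WT-t, TS-nt and TS-t, but 1 WT-nt library reached 2627 CPM. L1M5_dup3718 gave -0.92 (SE 0.41) for TS-t vs TS-nt and -1.35 (SE 0.58) for the interaction, L1M4b_dup157 gave -1.54 (SE 0.60) for WT-t vs WT-nt, and L1M2_dup4512 gave -1.58 (SE 0.58; -1.01 without the 8 distant libraries) for TS-t vs WT-t. None of these was called.

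The subfamily sums gave the same count. None of the 24 subfamilies passed in cortex and none of the 23 tested in hippocampus (L1M3b was too sparse there) in any contrast by edgeR. The background in cortex was 0.752% for TS-nt vs WT-nt, for TS-t vs WT-nt and for TS-t vs WT-t, and 0% for the others. In hippocampus it was 1.52% for TS-nt vs WT-nt and for TS-t vs WT-nt, and 0% for the others. At an unadjusted p below 0.05 there were 2, 0, 0, 1, 0 and 1 subfamilies in cortex, in the order of contrasts above, against 23.3%, 6.02%, 3.01%, 14.3%, 6.02% and 22.6% of all L1 subfamilies. In hippocampus there were 2, 2, 2, 1, 0 and 0, against 8.33%, 9.09%, 9.09%, 4.55%, 9.09% and 7.58%. In every contrast the share of the L1M1 to L1M8 subfamilies was thus below or close to that of all subfamilies. DESeq2 called L1M5 in cortex in 2 contrasts.

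**Figure D5:**
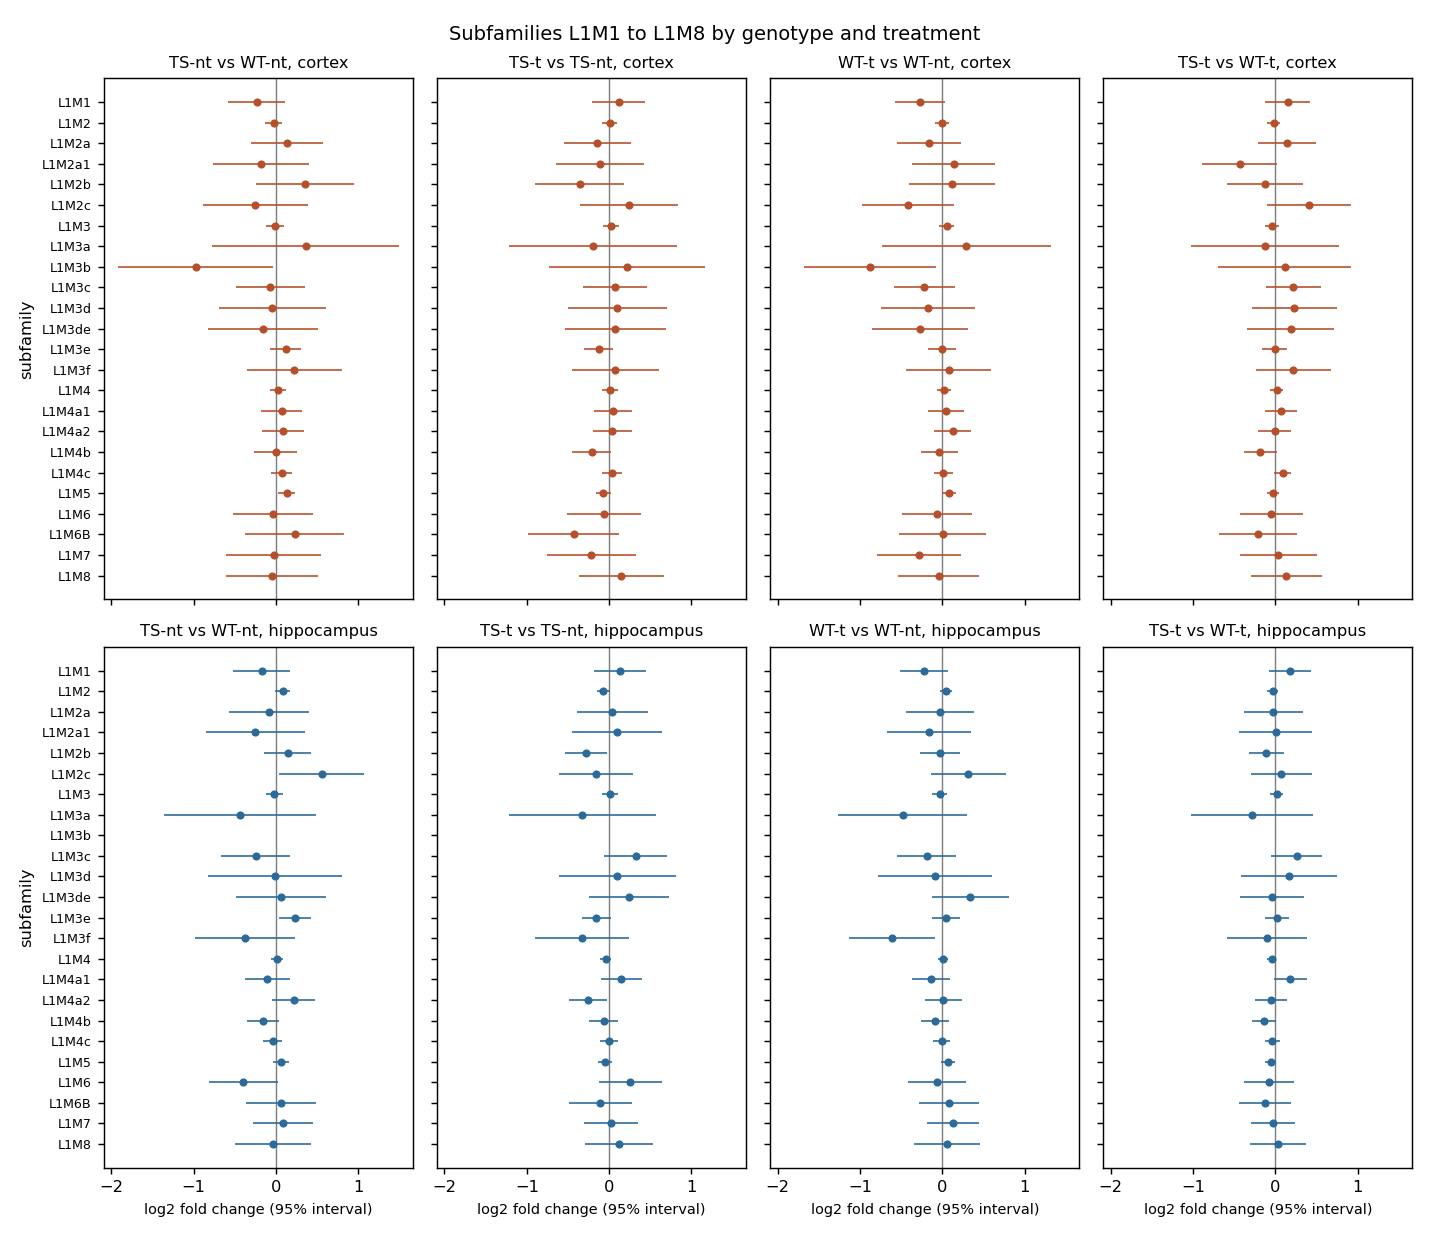
Log2 changes of the subfamilies with their 95% intervals in 4 contrasts of genotype and treatment within cortex (top) and hippocampus (bottom, where L1M3b was not tested). No subfamily was called, and the widest values are those of sparse subfamilies such as L1M3b and L1M3a.

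L1M5 in cortex came closest. Its share of L1 counts had a lowest, median and highest value of 0.992%, 1.92% and 2.11% in WT-nt and of 1.96%, 2.06% and 2.26% in TS-nt. The shares in WT-t were 1.10%, 2.03% and 2.15%, and those in TS-t 1.42%, 1.96% and 2.14%. The groups overlapped, and WT-nt, WT-t and TS-t each had libraries well below the lowest TS-nt value. TS-nt vs WT-nt gave a log2 change of 0.13 (SE 0.05, 95% interval 0.03 to 0.23, adjusted p = 0.107, edgeR), and DESeq2 called it (adjusted p = 0.0936). The interaction of treatment and genotype was -0.16 (SE 0.06, adjusted p = 0.205, edgeR; 0.0860 by DESeq2). Without the 8 distant libraries these fell to 0.06 (adjusted p = 0.395) and -0.06 (adjusted p = 0.880), in the fit by edgeR. In hippocampus, L1M5 medians were 1.99%, 2.14%, 2.09% and 2.05% in the same order of groups.

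The other large subfamilies lay close together in all 4 groups. Median shares of L1M2 in cortex were 1.26%, 1.28%, 1.25% and 1.26% in WT-nt, WT-t, then TS-nt and TS-t, and in hippocampus 1.26%, 1.32%, 1.33% and 1.29%. For L1M4 the medians were 1.36%, 1.37%, 1.39% and 1.38% in cortex, and those of hippocampus were 1.34%, 1.35%, 1.36% and 1.33%. L1M3 stood at 0.551%, 0.562%, 0.543% and 0.571% in cortex and at 0.590%, 0.569%, 0.561% and 0.553% in hippocampus. In the smaller L1M2b the medians were 0.0809%, 0.0800%, 0.104% and 0.0735% in cortex. Hippocampus gave L1M2b medians of 0.130%, 0.123%, 0.141% and 0.113%, where TS-t vs TS-nt gave -0.28 (adjusted p = 0.405, edgeR). L1M6 stood at 0.0262%, 0.0255%, 0.0253% and 0.0222% in cortex and at 0.0215%, 0.0195%, 0.0157% and 0.0185% in hippocampus.

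The sparse subfamilies gave the largest changes and the widest errors. In cortex, L1M3b gave -0.98 for TS-nt vs WT-nt (adjusted p = 0.207, edgeR) and -0.88 for WT-t vs WT-nt (adjusted p = 0.308, edgeR). Without the 8 distant libraries, which include WT-nt mouse 24, these became -0.09 (adjusted p = 0.943) and 0.08 (adjusted p = 0.996). In hippocampus, L1M3f gave -0.71 for TS-t vs WT-nt (adjusted p = 0.219, edgeR) and -0.61 for WT-t vs WT-nt (adjusted p = 0.717, edgeR). L1M2c gave 0.55 for TS-nt vs WT-nt there (adjusted p = 0.539, edgeR). Less sparse subfamilies gave smaller changes in hippocampus: L1M4b -0.23 for TS-t vs WT-nt (adjusted p = 0.219, edgeR), L1M3e 0.23 for TS-nt vs WT-nt (adjusted p = 0.408, edgeR) and L1M4a2 -0.26 for TS-t vs TS-nt (adjusted p = 0.405, edgeR). These held 50527, 14374 and 7970 counts in hippocampus, against 1370 for L1M2c. A change that misses the threshold is not shown to be 0. Over the subfamilies, standard errors ran from 0.05 to 0.58 in cortex and from 0.04 to 0.47 in hippocampus for TS-nt vs WT-nt.

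The study lists 3 of these copies among its L1s of interest, and all 3 had too few counts to be tested here in either tissue. Since the study chose them on these libraries, their counts are a description. L1M5_dup15311 is an 81 bp copy on the + strand at chr17:51848865-51848945 (GRCm38/mm10), in no annotated gene and 1294 bp from Gm37266. Its counts in cortex summed to 2 in WT-nt, 7 in WT-t, 26 in TS-nt and 71 in TS-t, with a count in 2 of 9, 3 of 17, 5 of 9 and 10 of 13 libraries. In hippocampus the sums were 1, 11, 3 and 11. Single libraries weighed on the cortex sums: mouse 27 held 12 of the 26 counts in TS-nt, and mouse 2, one of the 8 distant libraries, held 25 of the 71 in TS-t. Without the 8 distant libraries and mouse 27 the sums were 2, 7, 9 and 46, over the remaining 8, 13, 7 and 11 libraries. In hippocampus counts were found in 8 of 46 libraries in all.

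L1M5_dup3711 is a 358 bp copy on the - strand at chr4:59042610-59042967, in no annotated gene and 707 bp from Gng10, which encodes a G protein gamma subunit. Its counts in cortex summed to 5 in WT-nt, 63 in WT-t, 51 in TS-nt and 70 in TS-t, with a count in 2 of 9, 14 of 17, 7 of 9 and 13 of 13 libraries. Without the 8 distant libraries and mouse 27 they were 5, 60, 32 and 53. In hippocampus the sums were 36, 61, 16 and 45, so that WT-nt was not the low group there. L1M4_dup3352 is a 514 bp copy at chr5:27112729-27113242, on the - strand within an intron of Dpp6, a gene on the + strand that encodes an auxiliary subunit of potassium channels. Its counts in cortex summed to 49, 30, 22 and 3 in the same order of groups, of which 31 in WT-nt came from mouse 24, one of the 8 distant libraries. Without these and mouse 27 the sums were 18, 26, 9 and 3. In hippocampus the sums were 10, 25, 0 and 12, with a count in 11 of 46 libraries.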

How the data were processed

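Total RNA of cortex (48 libraries) and hippocampus (46 libraries) was sequenced after removal of ribosomal RNA, with strand kept. Per the study's methods and processing notes, the authors used Trimmomatic 0.38 to trim reads and HISAT2 2.1.0 to align them to GRCm38/mm10, with at most 5 alignments kept per read. Transposable elements were counted by the authors with Telescope (version not given in the sources used here), a tool that gives each ambiguous read to its most likely copy. StringTie 2.1.3b was used for genes. The deposited values are raw counts per L1 copy and library, so that copies with near-identical sequence can share reads.

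From these counts, copies were filtered with filterByExpr (minimum count 10, minimum total 15), scaled by TMM and tested with the quasi-likelihood test of edgeR 4.0.16 in R 4.3.3, with limma 3.58.1. All L1 copies or subfamily sums entered each fit, p-values were adjusted by Benjamini-Hochberg over all of them, and 0.1 was the threshold, as in the authors' methods. The 4 groups of a tissue shared 1 fit with 6 contrasts, and the tissues were compared in 1 fit of 8 groups. DESeq2 1.42.0, other scalings and filters, a mouse block and left-out libraries were alternatives. CPM are relative to the counts on the features tested, multiplied by the TMM factor of the library. Copies were named by fixed rules: the 5 with the highest mean per tissue, the 5 called with the smallest p-values in each direction between tissues, the smallest p-value of each other contrast, and those on the study's list. The members, lists and rules were chosen with earlier results of these data known. The scripts were tested on simulated data. Pairing of the tissues comes from the mouse numbers in the labels: deviations of the 2 samples of a mouse correlated with a median r of 0.178 over subfamilies (-0.314 to 0.702) and 0.0806 over copies, for 46 pairs. Positions came from the study's list and gene annotation of GRCm38/mm10.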

Additional observations from a re-analysis of the deposited data

Results flagged for a closer look

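In each group of 8 or 9 libraries, the share of L1 counts of each subfamily and of all subfamilies together was checked for a library far from the others by Dixon's criterion. Of 100 groups checked, 22 held such a library, where chance flags about 1 in 20 groups. They were not spread over mice: 17 of them belonged to 2 cortex libraries, and the subfamilies of one library are not independent of each other.

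The cortex of TS-nt mouse 27, the library with the most detected copies, stood high for all L1M1 to L1M8 copies together (7.65% of L1 counts, others 6.31% to 6.80%), L1M1 (0.0436%, others 0.0206% to 0.0283%), L1M2 (1.78%, others 1.19% to 1.30%), L1M3 (0.730%, others 0.532% to 0.619%), L1M3c (0.0389%, others 0.0132% to 0.0217%) and L1M4 (1.78%, others 1.26% to 1.47%). The same library stood low for L1M2b (0.0142%, others 0.0918% to 0.125%) and L1M4b (0.248%, others 0.364% to 0.482%), subfamilies in which few copies hold much of the counts.

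The cortex of WT-nt mouse 24, the library with the highest L1 total, stood low for all copies together (4.00% of L1 counts, others 6.26% to 6.73%), L1M2b (0.00524%, others 0.0719% to 0.102%), L1M3 (0.415%, others 0.523% to 0.614%), L1M3e (0.0501%, others 0.0935% to 0.118%), L1M4 (0.891%, others 1.27% to 1.45%), L1M4b (0.158%, others 0.361% to 0.501%), L1M5 (0.992%, others 1.73% to 2.11%) and L1M6B (0.00918%, others 0.109% to 0.207%). It stood high for L1M3b (0.0104%, others 0 to 0.00507%).

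The other 5 were single values. In WT-nt cortex, mouse 44 stood high for L1M3f (0.0123%, others 0.00424% to 0.00829%). In TS-nt hippocampus, mouse 23 stood high for L1M2a1 (0.0375%, others 0.00632% to 0.0197%) and L1M4b (0.545%, others 0.372% to 0.419%), mouse 40 for L1M2b (0.235%, others 0.0917% to 0.154%) and mouse 34 for L1M3b (0.00476%, others 0.000987% to 0.00272%). The cause of these values was not tested.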

How the results depend on the processing

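The filter on low counts decided the number of called copies, and the cause was not tested. With all copies of at least 10 counts in total, 2473 copies were called between the tissues, and with no filter 2013, with 83.0% and 83.2% of them higher in cortex against 30.7% as reported. Over all L1 copies 30920 of 224327 and 25060 of 388747 were called, with 83.4% and 83.7% higher in cortex against 54.0% as reported. These settings add copies with very few counts, and whether the quasi-likelihood test holds for such sparse counts was not tested. The share higher in cortex was 49.6% with the DESeq2 size factors, 53.6% by DESeq2 and 44.96% without the 8 distant libraries. Over all called L1 copies it was 70.2%, 70.1% and 60.3% in the same order. Within cortex, the filter of 10 and no filter gave 2473 and 3213 copies for TS-nt vs WT-nt, 2932 and 4087 for TS-t vs WT-nt, 1083 and 983 for TS-t vs TS-nt, 2804 and 3773 for WT-t vs WT-nt, 1847 and 3239 for TS-t vs WT-t and 1352 and 1179 for the interaction, where 0 were called as reported. Within hippocampus they gave 1595 and 0, 1486 and 1575, 1482 and 1604, 1469 and 1211, 1253 and 2368, and 1441 and 1173 in the same order. DESeq2 moved 4 other counts from 0 to 1: copies in hippocampus for TS-t vs WT-nt and TS-t vs WT-t, and subfamilies in cortex for TS-nt vs WT-nt and the interaction. Only the groups compared, DESeq2 size factors, the treated mice whose labels begin with 20, a threshold of 0.05 and, in cortex, the left-out libraries each left 0 copies and 0 subfamilies called in all the contrasts of genotype and treatment they were run for.

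Changes of direction fell on subfamilies that were not called as reported. Between the tissues, L1M3b gave 0.014 with the DESeq2 size factors. L1M4 gave -0.0067 without the TMM factor. Without the most counted copy of each subfamily, L1M3f gave 0.094, L1M4 -0.045 (adjusted p = 0.0350, edgeR), L1M4a2 0.024, L1M4c -0.063 (adjusted p = 0.0699, edgeR) and L1M8 0.049. L1M4a2 gave 0.018 without the 8 distant libraries and 0.0081 without mouse 27 as well, an alternative that was added after seeing the data. In cortex, L1M3b for WT-t vs WT-nt gave 0.083 and 0.081 in these settings. In the share of L1 counts, leaving the most abundant L1 copy of the table out of the total moved hippocampus to 6.99% ± 0.236 (SD, n = 46).

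With the replicate block (the mouse), 122 copies and 10 subfamilies were called between the tissues, against 101 and 10. In the block, L1M3de lost its call, and L1M2a1 (0.24, adjusted p = 0.0801, edgeR) and L1M4b_dup592 gained one. L1M2b could not be tested without its most counted copy. Most copies lay below the filter on low counts and were not tested singly as reported.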

Other observations

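The most abundant L1M1 to L1M8 copy, L1M5_dup9524, and a second L1M5 copy, L1M5_dup6859, took turns across libraries. L1M5_dup6859 was singled out after its values were seen. In 37 of 48 cortex libraries L1M5_dup9524 held 137 to 635 counts (median 452) and L1M5_dup6859 held 0 to 6. In 6 cortex libraries L1M5_dup9524 held 0 to 4 counts and L1M5_dup6859 held 249 to 479 (median 464). The remaining 5 cortex libraries held at most 4 counts on the first and at most 3 on the second. In hippocampus, 41 libraries held 294 to 875 counts (median 553) on L1M5_dup9524 and 0 to 9 on L1M5_dup6859, and the other 5 held 0 to 2 and 290 to 509. No library had more than 10 counts on both copies.

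The 6 cortex libraries with L1M5_dup6859 were 1 TS-nt, 1 TS-t, 2 WT-nt and 2 WT-t, the 5 with neither were 2 WT-nt, 2 WT-t and 1 TS-t, and the 5 hippocampus libraries with L1M5_dup6859 were 2 WT-t, 1 TS-nt and 2 TS-t. Each of the 4 groups thus held cortex libraries of both kinds. Of the 46 mice with both tissues, 31 counted L1M5_dup9524 in both, 10 were low for it in cortex only, 4 in hippocampus only and 1, mouse 6 (WT-t), in both. Of the L1M1 to L1M8 copies that reached 100 counts in some library (57 in cortex and 45 in hippocampus), these were, in each tissue, the only 2 with at least 3 libraries at 10 or fewer, at least 3 at 100 or more and none between, a limit that was set after the values were seen. A looser rule, without the need for at least 3 libraries on each side, left 7 copies in cortex and 2 in hippocampus. In cortex the pair was thus not alone in having no library between 10 and 100 counts. The positions and sequences of the 2 copies were not used, and the cause was not tested. A comparison of either copy between groups depends on which copy a library counted.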
